A study of Rattus norvegicus with 16 samples.

Results

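Several microRNA (miRNA) hairpins lie inside the Hox gene clusters, and 3 of their mature products, rno-miR-10a-5p, rno-miR-10b and rno-miR-196a, are described here among the 677 rat miRNAs of the array. They were chosen by name and followed through all 16 arrays. Only miR-10a-5p gave signal well above background. It was detected on all 16 arrays and was 1.29-fold lower in HHR hearts with the scaling reported here, whereas miR-10b and miR-196a were detected on no array.

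Heart RNA came from pups aged 2 days of HHR, a rat strain whose enlarged heart is inherited through many genes (Hypertrophic Heart Rat), and of NHR, whose heart is of normal size (Normal Heart Rat). Each strain gave 4 females and 4 males, untreated as far as the labels say, and each animal had an array of its own, hybridised with 100 ng of total RNA labelled with Cy3. The labels name the whole heart in one place and the ventricles without the atria in another. The strains differ by breeding, so the design cannot assign a strain difference to a particular gene.

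Hox genes encode transcription factors that give cells their position along the body axis, and their order on the chromosome follows the order in which they are switched on from head to tail. The miR-10 hairpins lie towards the anterior end of the clusters and the miR-196 hairpins towards the posterior end, and both families are known to target Hox messenger RNAs themselves. In mice, miR-196 directs cleavage of the Hoxb8 transcript. miR-10a is also known from human endothelial cells, where it restrains inflammatory signalling.

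The mature sequences below show how little separates the members of each family, which matters for what a hybridisation array can tell apart. They are credited to RefSeq (GRCr8), run 5′ to 3′, and the seed (bases 2 to 8, which pairs with target messages) is in capitals. All 3 members matched an entry, miR-10b and miR-196a through their 5p arms.
miR-10a-5p: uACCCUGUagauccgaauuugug
miR-10b-5p, ends as annotated: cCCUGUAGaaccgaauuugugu
Mir10b hairpin, stretch that lines up with miR-10a-5p: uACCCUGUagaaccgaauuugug
miR-196a-5p: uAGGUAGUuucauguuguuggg
miR-196b-5p: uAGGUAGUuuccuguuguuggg
miR-196c-5p: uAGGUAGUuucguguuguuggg
miR-100-5p, a relative of miR-10 outside the Hox clusters: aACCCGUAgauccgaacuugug

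Over 23 bases the Mir10b hairpin differed from miR-10a-5p by 1 substitution, U12A, counted from 1 at the 5′ end with the miR-10a base first. The annotated rat miR-10b-5p starts 2 bases further in, so that its seed by position, CCUGUAG, is not the seed of miR-10a-5p, ACCCUGU, although the hairpin holds both. Among 693 mature rat entries no other shared either seed. miR-196a, miR-196b and miR-196c share the seed AGGUAGU, and of all entries only these 3 carry it. miR-196b-5p differed from miR-196a-5p by A12C and miR-196c-5p by A12G, in both cases 1 base of 22. Probes for such near-identical miRNAs may share signal, and the share was not tested.

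In the GRCr8 assembly the Mir10a hairpin lies on chromosome 10 between Hoxb5 and Hoxb4. Mir10b lies on chromosome 3 within the annotated span of Hoxd4, with Hoxd3 as the next gene. Mir196a lies on chromosome 7 between Hoxc10 and Hoxc9, Mir196b on chromosome 4 between Hoxa9 and Hoxa10, and Mir196c on chromosome 10 next to Hoxb9, in the cluster that also holds Mir10a. Mir615, a hairpin of another family, lies within Hoxc5 and Hoxc6 on chromosome 7. The array files name the older rn4 build, so no GRCr8 positions are given.

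The array carried 11 mature products of these 6 hairpins, each on 20 spots, in 31 probes altogether. A miRNA counted as detected where most spots of at least 1 of its probes were flagged well above background by the scanner software. By this measure 1 of the 11, miR-10a-5p, was detected on all arrays and the other 10 on none, and the software's own flag per miRNA gave the same counts. Of the 3200 spots for the undetected products over all arrays, 2 were well above background, 1 of miR-10a-3p and 1 of miR-196c. The undetected products were miR-10b, miR-196a, the opposite arm of miR-10a, the star arms of miR-10b and miR-196a, both arms of miR-196b and of miR-196c, and miR-615. With signals this close to background, no fold between the strains can be given for any of them.

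**Figure D1:**
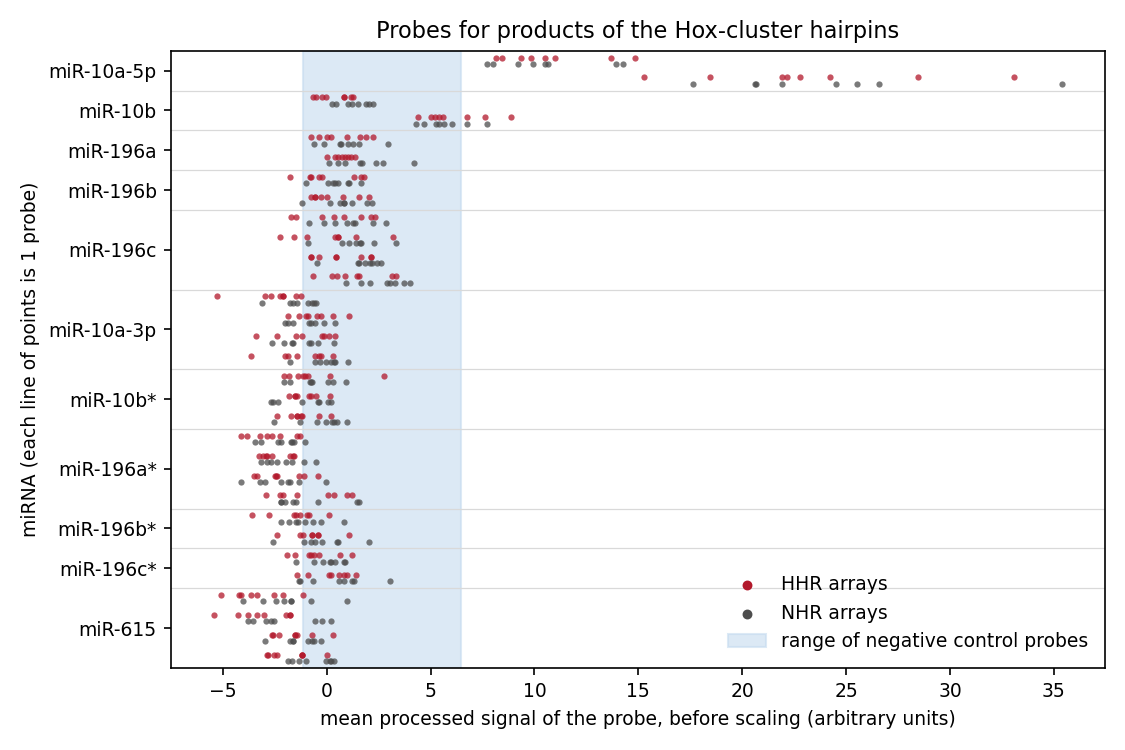
Mean processed signal of each of the 31 probes for Hox-cluster products on each array, before scaling (arbitrary units), with HHR arrays in red above NHR arrays in grey. The shaded band spans the negative control probes over all arrays, and the 2 probes of miR-10a-5p lie to its right, from 7.73 to 35.4. Its upper edge, 6.45, comes from HHR female 4, and the brighter miR-10b probe passes it on some arrays, reaching 8.87.

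miR-196a, the posterior member, gave signals that hardly left 0. Its mean processed signal, in the scanner's arbitrary units and before scaling, ran from 0.129 to 1.52 in HHR hearts and from 0.196 to 2.62 in NHR hearts (8 arrays each). None of its 320 spots was well above background, and 23.8% carried the software's weaker flag, positive and significantly different from background. The same weaker flag was carried by 22.2% of the negative control spots (mean over arrays, 434 such spots on each). Signal of miR-196a thus carried the flag about as often as spots that have no target. Among its relatives, which differ from it by 1 base, miR-196b had the weaker flag on 16.9% of spots and miR-196c on 26.2%.

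miR-10b, whose hairpin lies in the HoxD cluster, was not detected either, but its 2 probes went apart. The dimmer probe (A_26_P00001188) ran from -0.645 to 1.24 in HHR hearts and from 0.260 to 2.24 in NHR hearts, with 23.8% of its spots positive and significant. The brighter probe (A_26_P00001189) ran from 4.39 to 8.87 in HHR hearts, with a median of 5.48, and from 4.29 to 7.71 in NHR hearts, with a median of 5.52. Of its spots 86.2% were positive and significant, 0 of 160 were well above background, and on all 16 arrays its mean exceeded that of every negative control probe. One probe of miR-10b thus gave a low, repeatable signal and the other gave none that stood out from the negative controls.

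The brighter miR-10b probe was highest on the same 3 arrays as the brighter probe of miR-10a-5p (A_26_P00002567). On HHR female 4 they read 8.87 and 33.1, on HHR male 4 they read 7.62 and 28.4, and on NHR male 2 they read 7.71 and 35.4. Over the 16 arrays their unscaled signals had a Pearson r of 0.759, given as a description since the arrays differ in overall brightness. After division by each array's brightness r was 0.732, where both values share the divisor. Whether the miR-10b signal comes from miR-10b itself or from the near-identical miR-10a-5p was not tested.

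**Figure D2:**
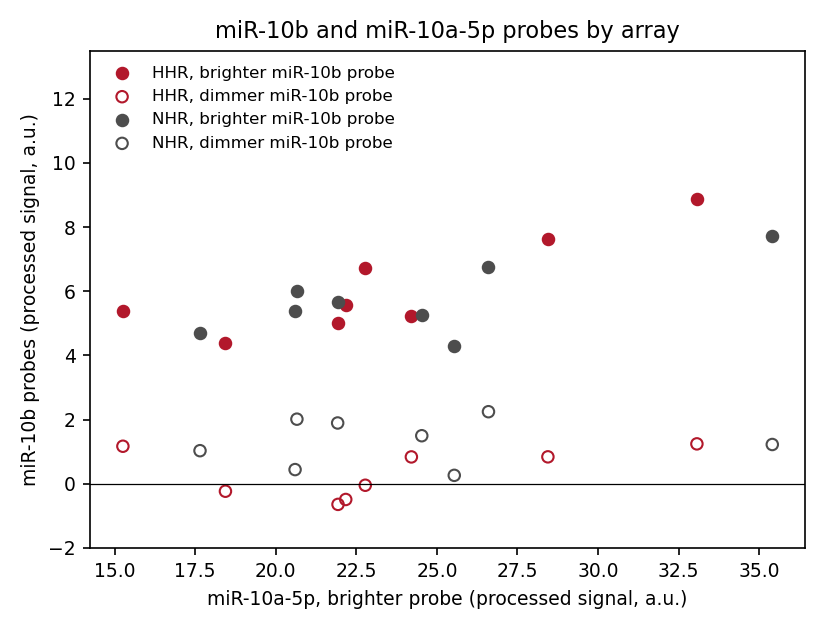
Processed signal of the brighter (filled) and dimmer (open) miR-10b probe against that of the brighter miR-10a-5p probe, 1 point per array and probe, before scaling (arbitrary units), HHR in red and NHR in grey. The brighter probe lies between 4.29 and 8.87 on every array and the dimmer one between -0.645 and 2.24.

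miR-10a-5p, from the HoxB cluster, was the exception. Levels given for it are processed signals averaged over its 2 probes and scaled so that the 75th percentile of the 258 probes detected on all arrays is equal between arrays. HHR females had levels of 13.2, 15.02, 14.3 and 21.1, and NHR females had 18.8, 22.7, 17.1 and 19.5. HHR males had 15.5, 13.6, 11.9 and 17.7, and NHR males had 21.3, 21.2, 18.4 and 17.3. In each sex HHR animals 1 to 3 lay below all NHR animals of that sex, and HHR animal 4 lay above the lowest of them. By strain the levels ran from 11.9 to 21.1 with a median of 14.6 in HHR and from 17.1 to 22.7 with a median of 19.1 in NHR, so the strains overlapped, with 2 HHR arrays above the lowest NHR array.

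**Figure D3:**
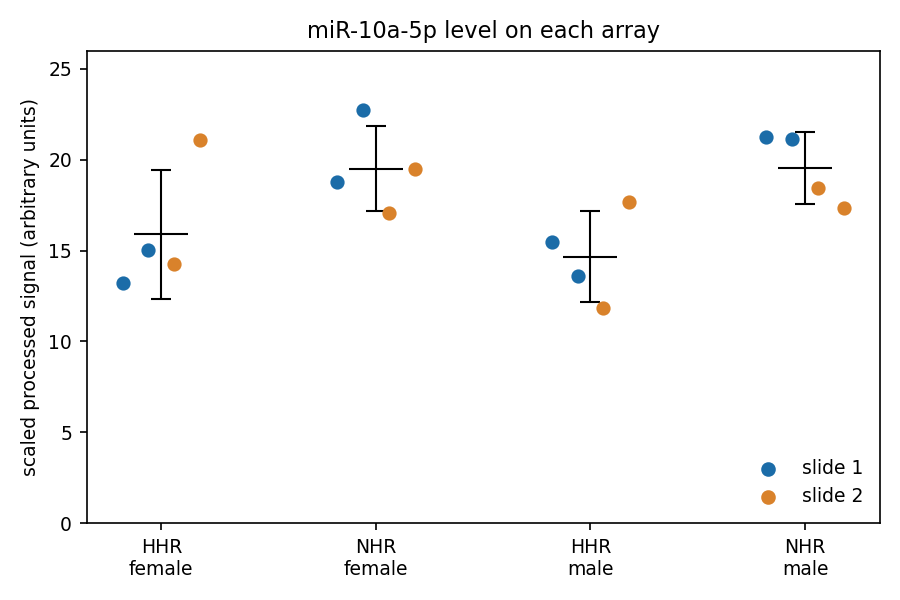
Level of miR-10a-5p on each of the 16 arrays (scaled processed signal, arbitrary units), by strain and sex, with points coloured by slide and bars for the mean and SD of 4 animals. The means are 15.9 and 14.7 in HHR females and males, against 19.5 in NHR females and 19.5 in NHR males.

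The comparison the study was designed for is that between the strains. miR-10a-5p averaged 15.3 ± 2.92 in HHR and 19.5 ± 2.02 in NHR hearts (SD, n = 8 each). It was lower in HHR by 1.29-fold (log2 difference -0.37 ± 0.11, SE, 95% interval -0.60 to -0.14, limma, Benjamini-Hochberg adjusted p = 0.0113). With this scaling 54.5% of the 233 tested miRNAs differed between the strains, 45.5% as lower and 9.01% as higher in HHR, and their median difference was -0.11. Relative to that median miR-10a-5p was lower by a further -0.26 on the log2 scale, and 20.2% of tested miRNAs had a larger difference in either direction. In 14.2% of tested miRNAs the arrays of the strains did not overlap, and miR-10a-5p was not among them.

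The call depended on how the arrays were scaled. Before scaling, the 75th percentile that measures brightness was 469.6 ± 37.3 on HHR arrays against 378.4 ± 87.3 on NHR arrays (SD, n = 8 each). The ranges overlapped, from 417.7 to 525.2 in HHR and from 294.7 to 502.9 in NHR. The brightest NHR arrays were female 3, male 2 and male 4, at 502.9, 497.2 and 442.7. Their miR-10a-5p levels were 17.1, 21.2 and 17.3, of which 17.1 and 17.3 were the lowest in NHR. Unscaled, miR-10a-5p signals ran from 11.7 to 24.0 in HHR and from 12.8 to 24.8 in NHR, and differed by -0.030 on the log2 scale (limma adjusted p = 0.873). Under the 5 other scalings the difference stayed negative, from -0.23 with median centring (adjusted p = 0.0917) to -0.030 unscaled, and it was called under none of them. The direction of the background turned as well. The median of all tested miRNAs was -0.11 as reported and positive under each of the 5 others, between 0.030 and 0.23. Of the miRNAs called, 83.5% were lower in HHR as reported, against 44.1% with quantile normalization, 40.0% with spike-in scaling, 37.9% with median centring, 20.8% unscaled and 13.55% with a percentile of all probes. Relative to its own median miR-10a-5p stood at -0.13 with quantile normalization and at -0.26 under the other 5 scalings, which move all well-measured miRNAs alike. With array brightness as a covariate it was -0.35 (adjusted p = 0.0694), and in the authors' table of log2 values, made by steps that no source used here spells out, it was -0.014 (adjusted p = 0.769). On each array those values had a Pearson r of at least 0.998 with the log2 median spot signal before background subtraction. Array medians there lay between 6.13 and 6.15 and miR-10a-5p between 6.33 and 6.55. Differences in that table are therefore compressed and not on the scale of the others. Over the 16 arrays the scaled log2 level had a Pearson r of -0.421 with log2 brightness, and the unscaled signal one of 0.563.

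The 2 slides gave differences of unequal size. On slide 1, miR-10a-5p had 14.3 ± 1.09 in HHR against 21.0 ± 1.63 in NHR (SD, n = 4 each), with no overlap, and the log2 difference was -0.55 ± 0.087 (SE, limma adjusted p = 0.0119). On slide 2 it had 16.2 ± 4.03 in HHR against 18.1 ± 1.10 in NHR, which overlapped, and the difference was -0.19 ± 0.18 (adjusted p = 0.475). Of the 233 tested miRNAs 37 were called within slide 1 and 47 within slide 2. The share of them without overlap on 4 against 4 arrays was not counted. Each slide carried 2 animals of every group, and the difference between slides was not tested. Both of the high HHR animals, HHR female 4 and HHR male 4, were on slide 2. They lay in the same row of arrays on it, as did NHR female 4 and NHR male 4. HHR female 4 also had the highest mean of negative control spots of all arrays, 2.06. Their SD on it was 10.3, against at most 3.23 on any other array, and 31.6% of them were positive and significant. The part of this in its miR-10a-5p level was not tested.

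**Figure D4:**
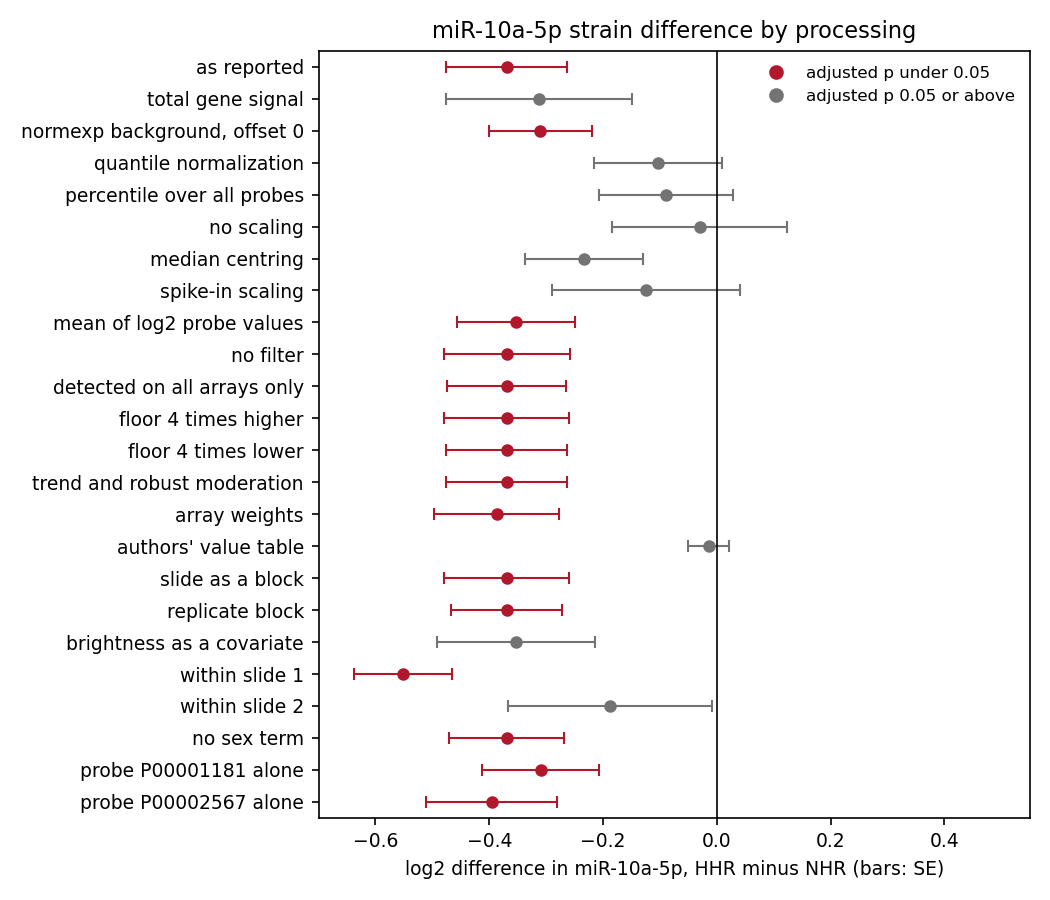
log2 difference of miR-10a-5p, HHR minus NHR, with its SE, as reported and under each alternative way of processing the arrays, in red where the adjusted p was under 0.05. All values lie below 0, from -0.55 within slide 1 to -0.014 in the authors' table, where differences are compressed.

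Both probes of miR-10a-5p gave the same direction. The brighter probe, detected on all 16 arrays, differed by -0.40 ± 0.11 (SE, limma adjusted p = 0.0117). The dimmer one (A_26_P00001181), detected on 3 arrays but with 99.4% of its spots positive and significant, differed by -0.31 ± 0.10 (adjusted p = 0.0221).

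Within the sexes taken alone the strain difference did not pass the threshold. In females it was -0.31 ± 0.15 (SE, limma adjusted p = 0.102), where 45.1% of tested miRNAs were called. In males it was -0.43 ± 0.15 (adjusted p = 0.0619), where 20.6% were called. Without HHR female 4 both passed, at -0.46 in females (adjusted p = 0.0186) and at -0.43 in males (0.0251), and without HHR male 4 that in males did, at -0.52 (0.0398). These arrays were the highest HHR array of each sex, and HHR female 4 had the widest spread of negative control signals. With each of the 16 arrays left out in turn, the female difference stayed uncalled in 15 cases (adjusted p up to 0.258). The male difference stayed uncalled in 14 (up to 0.167). The difference between the sexes in the strain effect, males minus females, was -0.11 ± 0.21 (95% interval -0.57 to 0.34, adjusted p = 0.954). In order of mean level the groups ran from HHR males (14.7 ± 2.51) and HHR females (15.9 ± 3.54) to NHR females (19.5 ± 2.36) and NHR males (19.5 ± 1.98; SD, n = 4 each), and neighbours in that order lay within their SDs, except that HHR and NHR females differed by about the larger SD.

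No sex difference of miR-10a-5p was detectable. The log2 difference, males minus females over both strains, was -0.052 ± 0.11 (SE, 95% interval -0.28 to 0.18, limma adjusted p = 0.970). Of the 233 tested miRNAs 0 were called for sex and 0 for the interaction with limma, which is 0% each, and 23 and 9 had an unadjusted p under 0.05.

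The non-Hox relatives of miR-10, miR-99a, miR-99b and miR-100, were detected on all 16 arrays. Their strain differences were 0.0055 ± 0.029 for miR-99a, -0.046 ± 0.038 for miR-99b and -0.11 ± 0.046 for miR-100 (SE, limma adjusted p = 0.887, 0.310 and 0.0559), none called with the reported scaling. Of the 6 scalings miR-99a was positive under 6 and called higher in HHR under 3, and miR-99b was positive under 5 and called higher under 2. miR-100 was positive under 4, and was called higher under 1 (a percentile of all probes) and lower under 1 (quantile normalization). Of all 233 tested miRNAs, 134 were called higher with a percentile of all probes and 54 with median centring. With quantile normalization 57 were called higher and 45 lower. Of these 4 only miR-10a-5p was negative under all 6, and it was called under 1. Outside the family miR-150, miR-192, miR-223 and miR-362* were negative under all 6 as well. Except for quantile normalization the scalings move all well-measured miRNAs alike, so these signs are not separate evidence. The share of all tested miRNAs that were so was not counted.

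Among 151 miRNAs detected on all arrays by both measures, outside the Hox clusters, those whose log2 levels followed miR-10a-5p most closely over the 16 arrays were miR-362* (Pearson r = 0.721), miR-146a (0.717) and let-7d (0.716), where the median over all 151 was 0.407. The arrays share their scaling and the 2 strains, and within groups the same r values were 0.373, 0.470 and 0.366. No median over all 151 is given for the within-group values, so they have no background beside them. miR-362* comes from a hairpin cluster within the chloride transporter gene Clcn5, miR-146a is induced by inflammatory signalling, and let-7d belongs to the let-7 family of differentiation-linked miRNAs. All 3 were called lower in HHR with the reported scaling, miR-362* by -0.57, miR-146a by -0.30 and let-7d by -0.13 (limma adjusted p = 6.24e-09, 1.17e-04 and 3.28e-04). They were picked for following miR-10a-5p, itself lower in HHR, over the same arrays, so these calls are not separate evidence. With that scaling 45.5% of all tested miRNAs were called lower. Of the 5 other scalings, 4 made let-7d positive, 1 made miR-146a positive and 0 made miR-362* positive.

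The tissue carried the miRNAs of heart muscle, with 6 of 7 cardiac markers detected on every array and miR-208 on none. All 6 epithelial markers, the liver marker miR-122 and the neural markers miR-124 and miR-9 were detected on no array. Called markers of other cell types are given here beside the 45.5% of all tested miRNAs called lower in HHR with the same scaling, and no list was tested as a set. Summed levels were formed with the reported scaling only. They are given beside the 14.2% of single tested miRNAs whose arrays did not overlap between the strains with it. Of 4 leukocyte markers miR-150 and miR-223 were called lower in HHR, by -0.53 and -0.47 on the log2 scale (limma adjusted p = 1.05e-07 and 0.00152). Both were negative under all 6 scalings, most of which move all well-measured miRNAs alike. Of the other leukocyte markers miR-142-3p was not called and miR-142-5p was not detected. The summed level of the 4 ran between 93.8 and 108.9 in HHR against 111.9 and 150.6 in NHR.

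Both endothelial markers, miR-126 and miR-126*, were called lower in HHR with the reported scaling and were positive under 3 of the 5 others. With the reported scaling their summed level ran between 982.2 and 1096 in HHR against 1178 and 1295 in NHR. Both smooth muscle markers, miR-143 and miR-145, were also called lower with that scaling (summed level 1288 to 1361 in HHR against 1418 to 1504 in NHR) and were positive under 4 and 5 of the others. Since the signs of these markers turned with the scaling, the separation of the endothelial and smooth muscle sums holds for the reported scaling only. Of 6 cardiac markers tested 4 were called lower, beside 45.5% of all tested miRNAs with the same scaling. Each of these 4 was positive under at least 2 of the other scalings. The summed level of the cardiac list overlapped between the strains (11728 to 13202 in HHR, 12502 to 14163 in NHR). Of the kidney and gut list miR-192 was lower under all 6 scalings (-0.82 as reported, limma adjusted p = 3.45e-07), miR-194 was detected on 1 array and miR-215 on none. Neither erythroid marker tested (miR-144 and miR-451) nor the skeletal muscle marker miR-206 was called. The part of these cell types in the miR-10a-5p difference was not tested, and in whole tissue fewer cells of a type cannot be told apart from less RNA per cell.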

How the data were processed

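Each one-colour Agilent array came as scanner output. Per the file headers, Agilent Feature Extraction 10.7.3.1 measured the intensity of each spot, and the processed signal, used here, is background-subtracted with no scaling between arrays. Detection flags (other values, 0 or 1) are deposited in the same files. A table of log2 values made by the authors served as an alternative, and the submitters' processing notes name limma.

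Without outlier and control spots, each probe's spots were averaged, arrays scaled to an equal 75th percentile over 258 probes, probes of a miRNA averaged, a floor of 1.92 applied and log2 taken. The 233 miRNAs that the software detected on at least 4 arrays were tested with limma 3.58.1 (R 4.3.3), 1 mean per group over 16 arrays, Benjamini-Hochberg adjustment over all 233, threshold 0.05. The test was checked on simulated data. Spot signals, not read counts, were measured, so the number of arrays limits the precision. Each array was a different animal.

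The members, lists and tests were chosen with earlier results of these data known. Named miRNAs are the 3 members, other products of the Hox-cluster hairpins, 3 relatives by sequence, the 3 with the highest Pearson r to a detected member and the markers of the cell type lists.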

Additional observations from a re-analysis of the deposited data

How the results depend on the processing

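The lower level of miR-10a-5p in HHR kept its direction under all 23 alternatives (-0.5513 to -0.01435, the last in the authors' table, where differences are compressed). Scalings other than quantile normalization move all well-measured miRNAs alike, so their shared direction is not separate evidence. The call of miR-10a-5p held under 14, none of which replaced the reported scaling between arrays, and several left the estimate at -0.3695. The call was lost with the total gene signal (-0.3123), spike-in scaling (-0.1251), quantile normalization (-0.1033), median centring (-0.2336), no scaling (-0.0302), a 75th percentile of all probes (-0.08947), the authors' table (-0.01435), brightness as a covariate (-0.3534) and within slide 2 (-0.1876). Leaving out each of the 16 arrays gave -0.4415 to -0.3214, all called. The cause was not tested.

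In females the difference turned positive without scaling (0.1151), with quantile normalization (0.007362), with a percentile of all probes (0.006375) and the authors' table (0.01173), and was called within slide 1 (-0.553). It was -0.4569 to -0.2317 over arrays left out, and -0.5223 to -0.3298 in males. The sex difference turned positive with a percentile of all probes (0.01235) and within slide 1 (0.03999), with -0.1003 to 0.01988 over arrays left out. The interaction turned within slide 1 (0.003417), with -0.2094 to 0.03092 over arrays left out.

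The number of miRNAs called between the strains, 127, was 155 with a percentile of all probes, 70 with the total gene signal, 48 without scaling, 25 with spike-in scaling, 15 in the authors' table, 74 with brightness as a covariate, 37 within slide 1 and 47 within slide 2, and 106 to 128 over arrays left out.

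With a replicate block the miR-10a-5p strain difference was -0.3695 (limma adjusted p = 0.0103) and 124 miRNAs were called, and it changed no other call of miR-10a-5p. Same-numbered HHR and NHR arrays deviated together unevenly (r from -0.117 to 0.516 over 8 pairs), so the numbers were not taken as pairs. In every group the same number also stood for the same slide and the same row of arrays on it. The replicate block is therefore also a block of slide and row. The planned ratio of miR-10a-5p to miR-10b was not tested, since miR-10b was not detected.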
